A study of Mus musculus with 9 samples.

Results

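Heat shock chaperones were followed here through 10 genes, Hsph1, Hspa1a, Hspa1b, Hspa8, Hsp90aa1, Dnajb1, Hspb1, Hspd1, Hspe1 and Hsf1, of the 56398 features in the count table. They were taken by symbol through GENCODE M21, and all 10 were found and passed the filter on low counts in each comparison. They were selected on expression differences measured in these same libraries, with all 3 comparisons known, so their values are given as a description, without p-values. The study sequenced RNA of 9 samples from BALB/c mice in 3 groups of 3. The sham group (sham 1 to 3) is healthy colon. The model group (model 1 to 3) is tumour tissue grown from CT26, a single mouse colon carcinoma line, in mice dosed with saline at 6 g/kg daily. The AC group (AC 1 to 3) is CT26 tumour tissue from mice dosed at 6 g/kg daily with the herbs Astragalus and Curcuma phaeocaulis Valeton, 2 parts to 1. Age, any allele, pooling and the site of injection are not given in the labels. Nor is it said whether each library is another animal, so the errors measure only the spread between libraries, which may be technical. Tumour tissue holds the injected line together with host stroma and immune cells, and in such bulk RNA fewer cells of a type and less RNA per cell cannot be told apart.

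Chaperones bind unfolded protein chains and keep them from aggregating, mostly by cycles of ATP binding and hydrolysis. HSF1 is the transcription factor that is released when misfolded proteins draw chaperones away from it, and it binds heat shock elements, inverted repeats of the unit GAA, in front of chaperone genes. HSP70 proteins take up clients with the help of J-domain proteins such as DNAJB1 and of exchange factors such as HSPH1, and hand part of them to HSP90. HSPD1 and HSPE1 form the folding chamber of the mitochondrial matrix, and HSPB1 is a small ATP-independent holdase. Colonic epithelium is known to express inducible HSP70 and HSPB1, and tumour cells commonly depend on HSF1 and HSP90.

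Total counts per library ran from 15690038 to 23476056. Levels are CPM, counts relative to library size with TMM factors over the 9 libraries, unless FPKM is named. FPKM also divides by gene length but carries no TMM factor. These factors ran from 0.709 to 0.800 in colon and from 1.13 to 1.19 in tumours. FPKM and CPM therefore differ in how colon compares with tumours, and the fold changes use TMM unless another scaling is named. Some libraries stood apart from their group in tissue markers. Summed over 5 B cell markers, sham 1 had 877 CPM against 109 and 53.1 in sham 2 and sham 3, and summed over 7 smooth muscle markers it had 117 CPM against 1362 and 1488. Summed over 8 epithelial markers, colon ran from 18156 to 26434 CPM. AC 3 had 887 and model 1 had 498 CPM of these, against 189.8 to 287 in the other 4 tumours. AC 2 had 106 CPM of the smooth muscle markers, against at most 28.7 in the other 5 tumours. AC 3 had 30.3 CPM of 5 red blood cell markers, against 66.7 to 163 in the other 5 tumours. None of the markers on these 4 lists was at 0 counts in all tumours. The part of these differences in the chaperone values was not tested. Some results that rest on sham 1, model 1 or AC 3 are given with and without them, others only with them.

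Promoter sequences show how the members differ in the HSF1 site. The RefSeq table (GRCm38.p6) held starts for 7 of the 10 members, and the entries for Hspa8, Hsp90aa1 and Hsf1 were missing. Searched on both strands in the 250 bases before each start, the pair of inverted units GAANNTTC or TTCNNGAA was found for 6 of these 7 genes, and for 14.5% of 27025 genes. A run of 3 such units, each inverted against the last at the same spacing, was found for Hspe1 and its neighbour Hspd1, and for 0.514% of genes. Overlapping matches were all counted, among 98 of the other chaperone network genes 14.3% held the pair, and Dnajb1 had none in these windows. The stretches below run 5′ to 3′ on the strand of the gene, with the matching units in capitals. They are chr17:34972157-34972406 (minus strand) for Hspa1a, chr5:135887779-135887858 (plus) for Hspb1, chr1:55088053-55088082 (plus) for Hspe1 and chr5:149636351-149636380 (minus) for Hsph1.
Hspa1a: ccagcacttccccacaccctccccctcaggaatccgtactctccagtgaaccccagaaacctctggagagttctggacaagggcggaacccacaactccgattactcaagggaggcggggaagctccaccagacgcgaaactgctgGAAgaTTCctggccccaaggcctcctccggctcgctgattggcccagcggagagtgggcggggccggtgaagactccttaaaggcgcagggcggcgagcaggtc
Hspb1: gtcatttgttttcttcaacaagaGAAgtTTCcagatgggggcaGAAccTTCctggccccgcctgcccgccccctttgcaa
Hspe1: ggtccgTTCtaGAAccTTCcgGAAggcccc
Hsph1: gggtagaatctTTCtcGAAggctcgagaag
Hspa1b carried the same pair at the same place, and its 250 bases differed from those of Hspa1a at 3 positions. The Hspe1 stretch holds 4 units in a row, a pattern found in 0.0213% of 32851 promoters. It lies before the Hspe1 start and inside the Hspd1 gene on the opposite strand, downstream of the first Hspd1 start and in the window before another annotated Hspd1 start. The Hsph1 pair lies before the RefSeq starts that were searched, at 149636336 and 149636315. It is downstream of the GENCODE M21 start of Hsph1 at 149636376, inside an annotated Hsph1 exon.

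**Figure D1:**
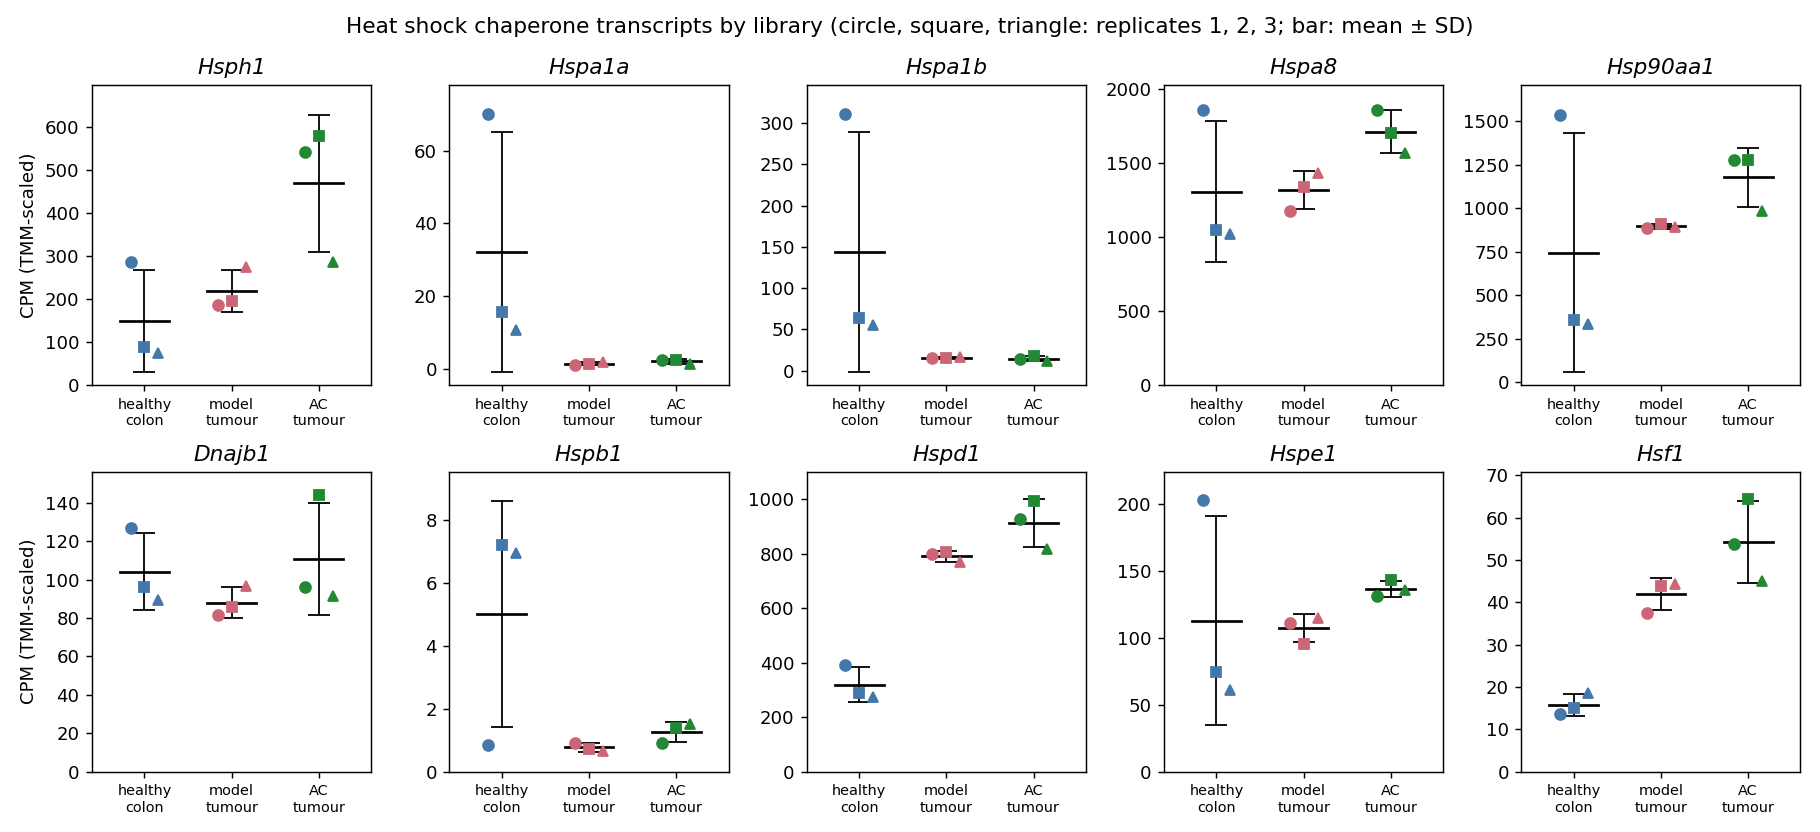
Level of each of the 10 chaperone genes in the 9 libraries (y axis, TMM-scaled CPM, linear). Points are libraries, with circle, square and triangle for replicates 1, 2 and 3, and bars are the group mean ± SD (n = 3). The circle of healthy colon, sham 1, stands far above the other colon libraries for Hspa1a, Hspa1b, Hsp90aa1, Hsph1 and Hspe1.

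Hspa1a and Hspa1b, the stress-inducible HSP70 genes, were lower in tumours than in colon. Hspa1b (ENSMUSG00000090877, GRCm38 chromosome 17, 34956436 to 34959238) measured 311, 63.6 and 55.5 CPM in sham 1 to 3. It measured 14.9, 15.8 and 16.8 CPM in model 1 to 3 and 14.2, 17.2 and 11.9 CPM in AC 1 to 3. All colon libraries lay above all tumours, and sham 1 was 5.22 times the mean of the other colon libraries. The log2 fold change was -3.20 (SE 0.741) in model tumours against colon and -3.35 (SE 0.766) in AC tumours against colon, comparisons that share the colon libraries. Without sham 1 these were -1.88 (SE 0.112) and -2.11 (SE 0.168). Hspa1a (ENSMUSG00000091971, chromosome 17, 34969190 to 34972156) measured 70.1, 15.6 and 10.8 CPM in colon, 1.19, 1.55 and 1.97 in model tumours and 2.62, 2.44 and 1.42 in AC tumours. Its groups of colon and tumour did not overlap either, with log2 fold changes of -4.38 (SE 0.837) and -3.93 (SE 0.834), or -3.04 and -2.67 without sham 1.

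Both HSP70 copies share sequence, so their split is uncertain. Of the 100-base windows of the Hspa1a transcript (2967 bases), 47.1% also occurred letter for letter in Hspa1b, and the read length is not given in the sources used here. With the counts of both copies summed, the log2 fold changes were -3.35 (SE 0.749) in model tumours and -3.44 (SE 0.774) in AC tumours against colon. Between AC and model tumours, the summed copies gave -0.07 (SE 0.158), where Hspa1a alone gave 0.46 (SE 0.331) and Hspa1b alone -0.14 (SE 0.156). Hspa1a and Hspa1b overlapped between AC and model tumours.

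Hspa8, the constitutive cytosolic HSP70 (ENSMUSG00000015656, chromosome 9, 40800984 to 40810087), was among the most abundant members in every group. Per length and without TMM factors it stood at 229 ± 99.9 FPKM in colon, 351 ± 38.2 in model tumours and 465 ± 38.8 in AC tumours (SD, n = 3). Its CPM was 1857, 1044 and 1018 in sham 1 to 3, 1177, 1340 and 1434 in model 1 to 3, and 1861, 1704 and 1570 in AC 1 to 3. AC tumours lay above all model tumours (log2 fold change 0.38, SE 0.101), and sham 1 lay within the range of AC tumours. Against colon the log2 fold change was 0.01 (SE 0.285) in model and 0.38 (SE 0.286) in AC tumours, with overlapping groups. Without sham 1 it was 0.39 (SE 0.0922) in model and 0.66 (SE 0.0779) in AC tumours. Without scaling factors it was 0.61 (SE 0.306) and 1.02 (SE 0.305). In model tumours it was below 0 without sham 2, without sham 3 or with DESeq2. The level of Hspa1b per unit of Hspa8, a ratio of FPKM within a library that needs no scaling, was 0.257, 0.0934 and 0.0837 in colon. In model tumours it was 0.0185 ± 0.000844 and in AC tumours 0.0129 ± 0.00220 (SD, n = 3), below every colon library.

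Hsph1, the HSP110 exchange factor of HSP70 (ENSMUSG00000029657, chromosome 5, 149614287 to 149636376), had the largest difference between AC and model tumours among the members. It measured 286, 88.4 and 74.1 CPM in sham 1 to 3, 186, 196 and 275 CPM in model 1 to 3, and 542, 579 and 286 CPM in AC 1 to 3. AC 1 and AC 2 were far above every model tumour, while AC 3 was 286 against 275 in model 3. The log2 fold change in AC against model tumours was 1.09 (SE 0.296). It was 1.34 without AC 3, the tumour with the most epithelial transcripts, and 0.91 to 1.34 over all libraries left out in turn. It was higher than that of 99.1% of the 17137 genes tested, a description, since the gene was chosen with this result known. Against colon, AC tumours differed by 1.62 (SE 0.594) and model tumours by 0.54 (SE 0.545), and without sham 1 by 2.46 and 1.47. AC 3 and sham 1 were level to within 1 CPM, so colon and AC tumours were barely apart. Relative to Hspa4, the constitutive member of the same HSP110 family, Hsph1 per length stood at 0.907, 0.314 and 0.260 in sham 1 to 3. This ratio was 0.703, 0.738 and 1.05 in model 1 to 3 and 1.74, 1.83 and 0.987 in AC 1 to 3. AC 3 lay below model 3, so AC and model tumours overlapped for this ratio, unlike for the CPM of Hsph1.

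Hsp90aa1, the inducible cytosolic HSP90 (ENSMUSG00000021270, chromosome 12, 110690605 to 110702728), was also higher in AC than in model tumours. It measured 1537, 360 and 337 CPM in sham 1 to 3, 885, 912 and 893 CPM in model 1 to 3, and 1275, 1276 and 982 CPM in AC 1 to 3. Every AC tumour lay above every model tumour, with AC 3 nearest to them (log2 fold change 0.39, SE 0.107). Colon spanned the tumours, since sham 1 was the highest library of all and sham 2 and sham 3 were the lowest. Against colon it differed by 0.25 (SE 0.618) on the log2 scale in model and 0.63 (SE 0.628) in AC tumours. Without sham 1 these were 1.40 (SE 0.0812) and 1.69 (SE 0.131). Without sham 2 or sham 3, model tumours came out below colon, at -0.15 at the lowest. The ratio of Hsp90aa1 to its constitutive partner Hsp90ab1, per length, was 1.19 in sham 1 and 0.399 and 0.389 in the other colon libraries. It was 0.270, 0.268 and 0.337 in model tumours and 0.395, 0.366 and 0.324 in AC tumours, so model and AC tumours overlapped. Hsp90ab1 itself was tested and rose in both kinds of tumour, as given below.

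**Figure D2:**
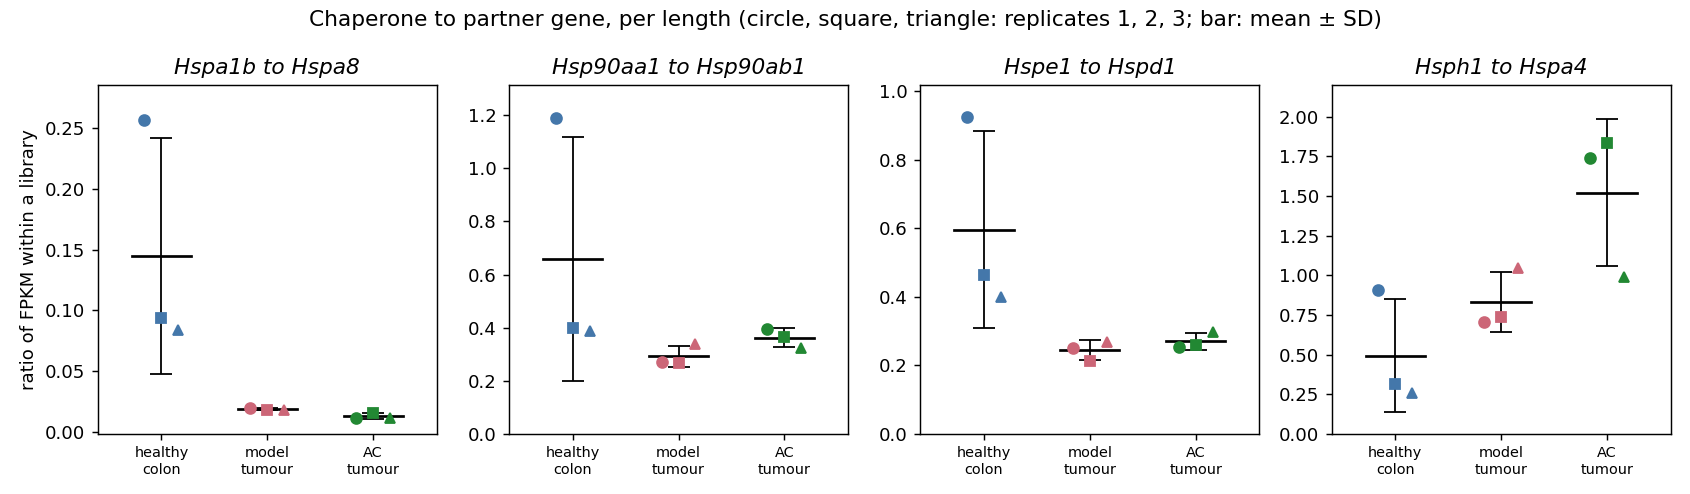
Ratio of FPKM within each library (y axis, no unit) of Hspa1b to Hspa8, Hsp90aa1 to Hsp90ab1, Hspe1 to Hspd1 and Hsph1 to Hspa4. Points are libraries (circle, square, triangle for replicates 1, 2, 3) and bars the mean ± SD (n = 3). Sham 1 is the highest library for the first 3 ratios, at 0.257, 1.19 and 0.925, and AC 1 and AC 2 are the highest for the fourth.

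Dnajb1, the J-domain partner that HSF1 induces with HSP70 (ENSMUSG00000005483, chromosome 8, 83608193 to 83612653), varied little between groups in TMM-scaled CPM. It measured 127, 96.0 and 89.3 CPM in colon, 81.4, 85.9 and 96.8 in model tumours and 96.4, 144 and 91.4 in AC tumours. All 3 groups overlapped, and AC 2, the tumour with the most smooth muscle transcripts, was the highest library. AC tumours differed from model tumours by 0.33 (SE 0.170) on the log2 scale, and by 0.09 without AC 2. Against colon it was -0.23 (SE 0.182) in model and 0.08 (SE 0.234) in AC tumours. Without scaling factors the model value was 0.37 (SE 0.205) and the AC value 0.725 (SE 0.251). The AC value was below 0 with DESeq2 (-0.01), without sham 3 (-0.04) and without AC 2 (-0.11).

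Hspb1, the small heat shock protein HSP27 in its mouse form (ENSMUSG00000004951, chromosome 5, 135887919 to 135889563), was the member with the fewest reads. Sham 2 and sham 3 had 7.22 and 6.95 CPM, from 90 and 98 counts, while sham 1 had 0.857 CPM from 11 counts. Model tumours had 0.932, 0.729 and 0.675 CPM and AC tumours 0.904, 1.39 and 1.52 CPM, from 13 to 29 counts. Sham 1 fell among the tumours, the reverse of its place for the inducible HSP70 genes. On the log2 scale it differed by -2.63 (SE 0.748) in model and -1.95 (SE 0.745) in AC tumours against colon. Without sham 1 these were -3.13 (SE 0.282) and -2.54 (SE 0.303). Between AC and model tumours it was 0.69 (SE 0.345), with overlapping groups.

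Hspd1, the mitochondrial chaperonin HSP60 (ENSMUSG00000025980, chromosome 1, 55077835 to 55088243), was higher in every tumour than in every colon library. It measured 394, 290.1 and 275 CPM in colon, 798, 809 and 769 CPM in model tumours and 928, 994 and 818 CPM in AC tumours. Its difference on the log2 scale was 1.32 (SE 0.201) in model and 1.51 (SE 0.204) in AC tumours against colon, and 0.20 (SE 0.0897) in AC against model tumours, whose libraries did not overlap.

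Hspe1, the HSP10 lid of that chamber (ENSMUSG00000073676, chromosome 1, 55088132 to 55091307), measured 203, 74.9 and 61.2 CPM in colon, 112, 95.3 and 115 in model tumours and 131, 143 and 136 in AC tumours. AC tumours lay above all model tumours (0.35, SE 0.0948), while sham 1 was above all tumours and the other colon libraries below them. Against colon the log2 fold change of Hspe1 was -0.08 (SE 0.473) in model and 0.25 (SE 0.471) in AC tumours, or 0.69 (SE 0.121) and 0.94 (SE 0.111) without sham 1. The value in model tumours was also above 0 without scaling factors, without model 2 and with the replicate block, and that in AC tumours was -0.05 without sham 3. The ratio of Hspe1 to Hspd1 per length was 0.925, 0.463 and 0.398 in colon, 0.243 ± 0.0294 in model tumours and 0.270 ± 0.0241 in AC tumours (SD, n = 3). The genes overlap by 112 bases on opposite strands, and 5 and 6 features of the table carry the names of Hspd1 and Hspe1 copies (up to 15.0 and 0.727 CPM summed in a library), so part of their reads may be shared.

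Hsf1, the transcription factor of the heat shock response (ENSMUSG00000022556, chromosome 15, 76477422 to 76501913), was higher in every tumour than in colon, and sham 1 did not stand out. It measured 13.6, 15.1 and 18.5 CPM in colon, 37.5, 43.9 and 44.4 in model tumours and 53.7, 64.3 and 44.9 in AC tumours. The log2 fold change was 1.43 (SE 0.158) in model and 1.79 (SE 0.182) in AC tumours against colon. In AC against model tumours it was 0.37 (SE 0.135), and AC 3 at 44.9 CPM was nearly level with model 3 at 44.4 CPM. Among all the members, Hsf1 per length and without TMM factors was low, at 1.64 ± 0.177 FPKM in colon, 6.77 ± 0.654 in model and 8.93 ± 1.46 in AC tumours (SD, n = 3). Transcript level does not report on the activity of the factor, which is regulated on the protein.

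Per length, the order of the members in model tumours began with Hspa8 (351 FPKM), Hspd1 (343 ± 3.00) and Hsp90aa1 (261 ± 3.96). The first of these did not differ from the second beyond their spread. Hspe1 (83.6 ± 9.60), Hsph1 (34.6 ± 8.37) and Dnajb1 (31.5 ± 3.31) came next, the last pair within their spread, and Hsf1 and Hspa1b (6.48 ± 0.459) were at similar levels. Hspb1 (0.865 ± 0.147) and Hspa1a (0.608 ± 0.159) came last (SD, n = 3). In colon without sham 1, Hspa8 was first with 176 and 167 FPKM, and Hspa1b at 16.5 and 14 FPKM stood above Hsph1 at 8.83 and 7.22 FPKM.

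**Figure D3:**
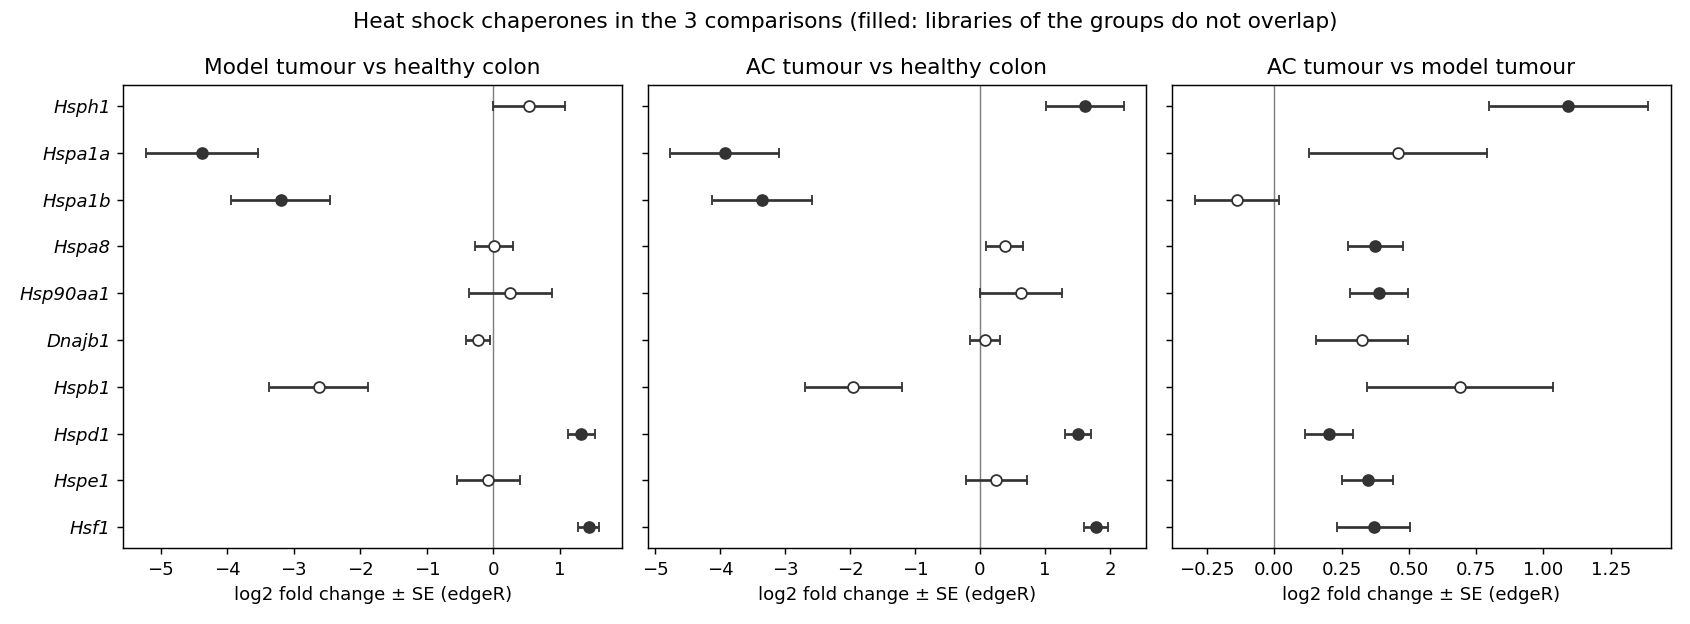
Log2 fold change with its SE (x axis, edgeR) of the 10 chaperones (y axis) in model tumour against colon, AC tumour against colon, and AC against model tumour. Filled points mark genes whose libraries do not overlap between the groups. Hspa1a and Hspa1b lie far to the left in both comparisons with colon, and 9 of 10 estimates lie to the right of 0 between AC and model tumours.

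Counted over the members, model tumours against colon had 2 past the edgeR threshold (adjusted p under 0.05) and higher (Hspd1, Hsf1), 3 past it and lower (Hspa1a, Hspa1b, Hspb1), and 5 not. Of all 18228 genes tested 69.7% were past it, 36.8% higher and 32.9% lower, and nothing is read from the members' count, since their choice used this comparison. Hspb1 was not past it without model 2, without model 3 or with the replicate block. Libraries did not overlap for 4 members, 2 higher and 2 lower, where 76.9% of all genes did not overlap, 41.3% higher and 35.6% lower. The median log2 fold change was -0.03 over the members and 0.12 over all genes. AC tumours against colon had 3 higher (Hspd1, Hsf1, Hsph1) and 2 lower (Hspa1a, Hspa1b), where 68.2% of 17832 genes were past the threshold, 35.5% higher and 32.7% lower. Libraries did not overlap for these 5, where 75.7% of all genes did not overlap, 40.5% higher and 35.3% lower. The medians were 0.32 over the members and 0.10 over all genes. Hsph1 was not past the threshold without sham 2, sham 3, AC 1 or AC 2, or without the low-count filter. Without scaling factors Dnajb1 and Hspa8 were also past it in AC tumours, making 5 higher and 2 lower. Of all genes, 49.5% were then higher and 23.1% lower. Without sham 1, 6 members were higher (Hsf1, Hspd1, Hsph1, Hsp90aa1, Hspa8 and Hspe1) and 3 lower (Hspa1a, Hspa1b and Hspb1) in each comparison. Of all genes, 42.4% were then higher and 36.4% lower in model tumours, and 38.7% and 36.9% in AC tumours. Counts of sham 2 and sham 3 differed by a chi-square of 2.88 per degree of freedom, and each differed from sham 1 by 88.6 and 105, so errors without sham 1 rest on a narrow pair.

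Between AC and model tumours, edgeR called 0% of 17137 genes (smallest adjusted p 0.103), and 2253 genes, or 13.1%, had an unadjusted p under 0.05. DESeq2 called 306 of 13409 genes (2.28%), 84 of them higher (0.626%). For 6 members, Hsph1, Hspa8, Hsp90aa1, Hspe1, Hsf1 and Hspd1, every AC library lay above every model library, which held for 9.06% of all genes (19% in either direction). For 0 members it was the reverse, which held for 9.99%. The median log2 fold change was 0.37 over the members and 0.01 over all genes. DESeq2 called 3 members, all higher (Hsph1, Hspa8, Hsp90aa1). Without AC 3, edgeR called Hsph1 and Hsp90aa1 (3.21% of genes called), and without AC 3 and model 1 it called Hsph1 (0.549%). The members were chosen with this comparison known, and nothing is read from these counts.

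The wider chaperone network was taken as 9 lists. These were chaperone families, their partners and regulators, and 8 other stress-induced targets of HSF1, which are not a family. The lists hold 125 genes that are not among the 10, of which 112 passed the filter. In model tumours against colon, 45 of these rose, 30 fell and 37 were not called, so 67.0% were called where 69.7% of all genes were. Their median log2 fold change was 0.25, against 0.12 over all genes. Markers of other cells moved with this comparison: all 5 macrophage, all 5 red blood cell and 4 of 5 endothelial markers rose, and 7 of 8 epithelial, all 7 smooth muscle, all 5 B cell and 4 of 5 T cell markers fell. Summed macrophage markers ran from 32.4 to 38.3 CPM in colon and from 477 to 686 CPM in model tumours. Mitochondrial transcripts took 7.01 to 8.63% of counts in colon and 2.29 to 2.65% in tumours. The part of these shifts in the chaperone values was not tested. Without scaling factors the median over all genes was 0.72, and 65 of the 112 rose and 16 fell, where 49.7% and 24.2% of all genes did. Without scaling factors, each of the 9 lists had more genes that rose than fell. All 8 tested subunits of TRiC, the cytosolic chaperonin that folds actin and tubulin, rose (median 1.36), also without scaling factors and with DESeq2, which called 72.7% of all genes. Without sham 2, sham 3, model 1 or model 2, 7 TRiC genes were called higher. Cct7 went from 130.3 ± 4.44 CPM in colon to 376 ± 13 in model tumours (SD, n = 3; 1.55 on the log2 scale, SE 0.125, edgeR adjusted p 9.44e-05).

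HSP90 and HSP70 relatives rose for the most part. All 3 HSP90 genes rose with edgeR, with and without scaling factors, and 2 of 3 with DESeq2 or when any library other than sham 1 was left out. Hsp90ab1, the constitutive cytosolic form, went from 778 ± 180 CPM to 2371 ± 306 (SD, n = 3; 1.62, SE 0.243, edgeR adjusted p 0.00118). Hsp90b1, the form of the endoplasmic reticulum, went from 480 ± 91.4 to 961 ± 83.2 CPM (1.01, adjusted p 0.00375). Of 11 further HSP70 genes, 7 rose, 3 fell and 1 was not called. Hspa9, the mitochondrial HSP70, went from 295 ± 13.3 to 1001 ± 118 CPM (1.78, SE 0.168, adjusted p 0.00017), beside the higher Hspd1. Hspa12a, a distant relative, fell from 16.6 ± 2.12 to 0.807 ± 0.302 CPM (-4.31, SE 0.369, adjusted p 0.000122).

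J-domain proteins, which choose the clients of HSP70, went both ways. Of 43 tested, 9 rose, 17 fell and 17 were not called, but without scaling factors 18 rose and 10 fell, so the balance of this family depends on the scaling. Dnajb11, a partner of HSP70 in the endoplasmic reticulum, fell from 229.7 ± 15.1 to 53.5 ± 3.26 CPM in model tumours (-2.09, SE 0.141, edgeR adjusted p 5.06e-05). Dnajc18 rose from 7.31 ± 0.753 to 46.6 ± 3.49 CPM (2.69, SE 0.174, adjusted p 4.42e-05). Of 25 cochaperones and exchange factors, 9 rose, 2 fell and 14 were not called. Without scaling factors 16 rose and 2 fell, without sham 1 12 rose and 6 fell, and without sham 2 or without sham 3 4 fell. Bag2 rose from 3.10 ± 0.972 to 25.1 ± 2.22 CPM, and Bag1 fell from 226 ± 40.0 to 59.5 ± 3.14 CPM (edgeR adjusted p 0.000212 and 0.000201), both exchange factors of HSP70. Of 6 mitochondrial partners and proteases, Lonp1, a matrix protease, rose and 3 fell, among them Grpel2, an exchange factor of the matrix HSP70, from 146 ± 17.8 to 27.2 ± 0.397 CPM (adjusted p 2.64e-05). Without scaling factors 3 of these 6 rose and 1 fell.

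Small heat shock proteins and heat shock factors were few. Of the 5 tested small heat shock proteins, 2 went up past the threshold and 1 went down. Hspb8, which works with BAG3 in selective autophagy, rose from 2.42, 11.8 and 12.3 CPM in sham 1 to 3 to 72.3 to 77.7 CPM in model tumours (3.12, SE 0.542, edgeR adjusted p 0.0022). Sham 1 was lowest there, as for Hspb1. Of 3 tested factors and regulators, Hsf4 rose from 0.865 ± 0.450 to 15.3 ± 1.23 CPM (4.16, SE 0.397, adjusted p 0.000183) and Hsf2 from 14.4 ± 2.35 to 27.8 ± 3.35 CPM (adjusted p 0.00598). Hsbp1, a binding protein that restrains HSF1, fell from 103 ± 16.8 to 57.6 ± 5.39 CPM (adjusted p 0.00551), although with no scaling factors no gene of this list was called lower. Of 8 other stress-induced targets of HSF1, 4 rose and 3 fell. In each alternative 4 rose, while 1 fell without scaling factors, without model 1, without model 3 or with the replicate block, and 2 fell without model 2, without sham 2 or without the filter on low counts. Serpinh1, the collagen chaperone HSP47, went from 15.6 ± 2.16 to 347 ± 41.4 CPM (4.50, SE 0.170, adjusted p 1.57e-05). Hmox1 and Mt1, a heme oxygenase and a metallothionein that other stress factors also drive, rose by log2 fold changes of 4.86 and 3.77 (adjusted p 3.68e-05 and 3.4e-05).

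AC tumours against colon gave like counts, over the same colon libraries. Of the 112 genes, 50 rose, 33 fell and 29 were not called, and 74.1% were called where 68.2% of all genes were. Without scaling factors the median over all genes was 0.75, and 68 rose and 14 fell, where 49.5% and 23.1% of all genes did. All 8 TRiC subunits rose (median 1.60), also without scaling factors, and Cct7 reached 399 ± 14.4 CPM. Hsp90ab1 reached 2477 ± 177 CPM (1.66, SE 0.219, edgeR adjusted p 0.000798), Hspa9 938 ± 88.0 CPM (1.67, adjusted p 0.000154) and Serpinh1 418 ± 59.7 CPM (4.75, adjusted p 2.61e-05). Cryab, the small heat shock protein alpha-B crystallin, rose from 1.17, 5.94 and 5.67 CPM in sham 1 to 3 to 14.2, 13.9 and 21.2 CPM in AC 1 to 3 (1.97, SE 0.570, edgeR adjusted p 0.0199). Of the small heat shock proteins, 4 were called higher and 1 lower. Only 2 or 3 were called higher when sham 2, sham 3 or any AC library was left out. Without sham 1, 57 of the network genes rose and 36 fell here, and 52 rose and 39 fell in model tumours.

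**Figure D4:**
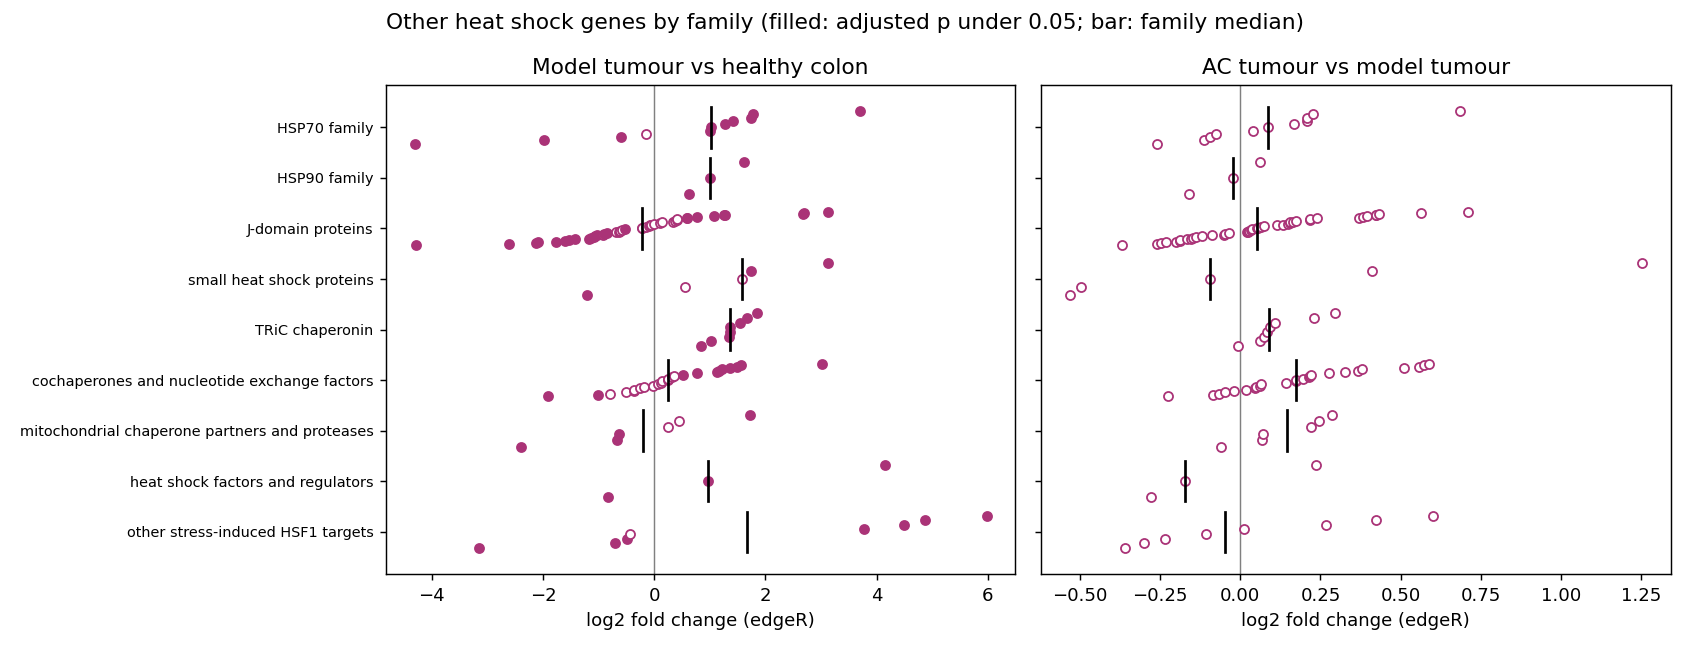
Log2 fold change (x axis, edgeR) of the 112 tested genes of the wider chaperone network by family or list (y axis), in model tumour against colon (left) and AC against model tumour (right, on a narrower axis). Each point is a gene, filled where the adjusted p is under 0.05, and bars are the medians of each family or list. All 8 TRiC points are filled and to the right on the left panel, and no point is filled on the right panel.

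Between AC and model tumours edgeR called 0 of the 112 network genes, and 26 had an unadjusted p under 0.05, of which 20 were higher in AC (5.82% of all genes were). Libraries did not overlap for 26 genes with AC higher and 13 with AC lower, or 39 of 112, where 9.06% and 9.99% of all genes were so. Of the 26, 10 were among the 25 cochaperones, whose median log2 fold change was 0.18. Chordc1, an HSP90 cochaperone, had the smallest p of its list, and measured 75.8, 82.5 and 92.2 CPM in model 1 to 3 and 134, 135 and 101 CPM in AC 1 to 3 (0.56, SE 0.122, edgeR adjusted p 0.231). Among the J-domain proteins, 6 lay apart with AC higher and 6 with AC lower. Of the lower ones, Sec63 had 186, 176 and 191 CPM in model tumours and 124, 141 and 163 CPM in AC tumours (-0.37, SE 0.113). Some other partners of HSP90 and HSP70 had every AC library above every model library, like Chordc1. These partners and Sec63 are named after their values were seen. Ahsa1, which activates the HSP90 ATPase, had 72.9, 73.5 and 77.0 CPM in model tumours and 118, 115 and 85.4 CPM in AC tumours (0.51, SE 0.119). Fkbp4, an immunophilin of steroid receptor complexes, had 153, 141 and 190.4 against 249.6, 273 and 199.7 CPM (0.57, SE 0.141). Dnaja1, a J-domain partner of HSP70, had 227, 216 and 258 against 359.6, 402 and 276 CPM (0.56, SE 0.134). Stip1, which links HSP70 to HSP90, had 182, 191 and 186 against 271, 268 and 192 CPM (0.38, SE 0.124). AC 3 was the AC library nearest to the model tumours for Chordc1, Ahsa1, Fkbp4, Dnaja1 and Stip1, as for Hsph1. It was the farthest for Hspb7, with 8.20, 4.05 and 5.35 CPM in model and 12.2, 11.7 and 18.2 CPM in AC tumours. It was also the farthest for Fkbp5, with 226, 242 and 183 against 270, 258 and 289 CPM. AC 3 held the most epithelial transcripts, whose part in these values was not tested.

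**Figure D5:**
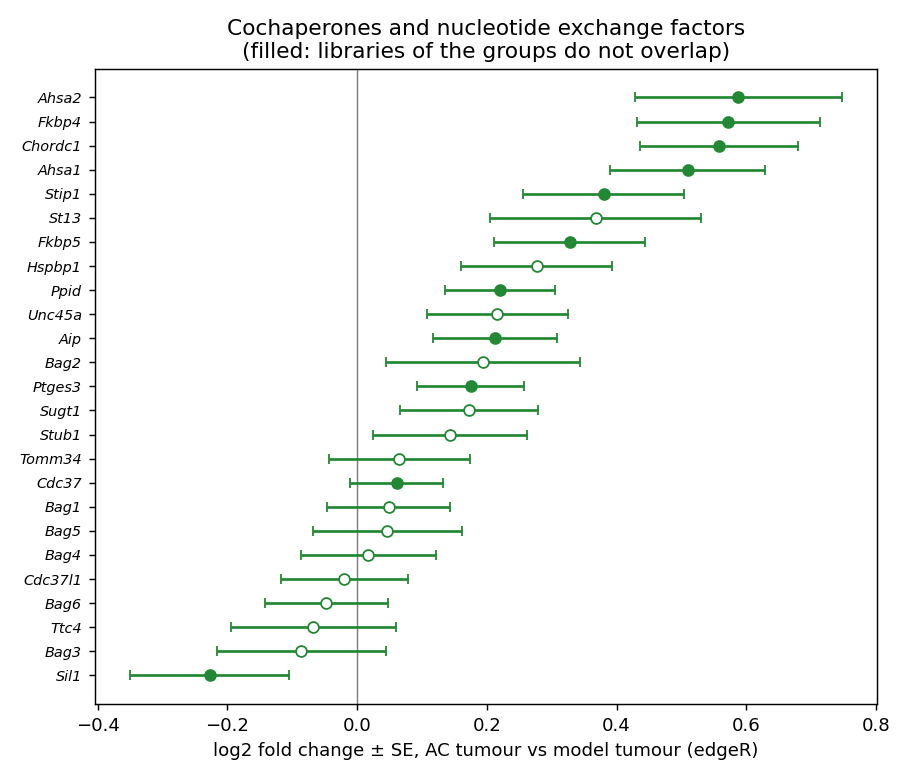
Log2 fold change with its SE (x axis, edgeR) of the 25 cochaperones and nucleotide exchange factors (y axis) in AC against model tumours. Filled points mark genes whose libraries do not overlap. The 10 filled points to the right include Ahsa2, Fkbp4, Chordc1, Ahsa1 and Stip1 at 0.38 to 0.59, and Sil1 is the filled point to the left.

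The count depended on the test and on AC 3. DESeq2 called 6 network genes, all higher in AC (Dnaja1, Hspb7, Dnajc2, Fkbp4, Chordc1 and Ahsa1), where it called 0.626% of all genes higher. With no filter on low counts, edgeR called 3 (Dnaja1, Chordc1 and Ahsa1), all higher, and 0.318% of all genes. Without AC 3 edgeR called 11, with 9 higher in AC and 2 lower, where 0.845% of genes were called higher and 2.36% lower. Without model 1 and AC 3 it called 0. By contrast Hsp90ab1, at 2371 and 2477 CPM, differed by 0.06 (SE 0.112), and TRiC had a median of 0.09. Hspa4l, a relative of Hsph1, had the smallest p of the HSP70 list and was lower, at 214, 210.0 and 214 CPM in model tumours and 180.04, 173 and 179.9 CPM in AC tumours (-0.26, SE 0.0733, edgeR adjusted p 0.257).

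Genes of other stress programmes were set beside these values. Of 19 immediate early genes, 5 rose and 7 fell in model tumours, and Fos fell from 205 ± 22.7 to 9.52 ± 1.73 CPM (edgeR adjusted p 2.15e-05). Summed over the list, colon ran from 2907 to 3234 CPM with sham 1 the lowest, and tumours from 955 to 1247 CPM. Klf4 and Klf6 made up 1385 and 607 CPM of the sum in sham 1. Single genes of the list went both ways in sham 1, which was the highest colon library for 7 of 19. Egr3 measured 12.3 CPM in sham 1 against 2.01 and 1.35 in the other colon libraries, and Jun measured 118 against 264 and 265 CPM, both named after their values were seen. The part of these genes in the chaperone values was not tested. Of 9 folding enzymes of the endoplasmic reticulum, 2 rose, 1 fell and 6 were not called in model tumours. Pdia6 rose from 104 ± 14.8 to 278 ± 37.3 CPM (adjusted p 0.000612), and Sdf2l1 fell from 27.8 ± 4.34 to 10.04 ± 2.73 CPM (adjusted p 0.00271). Between AC and model tumours edgeR called 0 genes of both lists, and the summed endoplasmic reticulum level was 2685 to 2947 CPM in model and 2777 to 2853 CPM in AC tumours.

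The genes whose levels followed Hsph1 most closely were sought among 11089 named genes over the 9 libraries, as a description of libraries that share depth and tissue makeup. The 5 highest Pearson correlations on the log2 scale, all 0.98, belonged to Lsm1, Polr1e, Ubxn4, Ahsa1 and Polr2j. Among the members the correlation with Hsph1 was 0.92 for Hspa8, 0.90 for Hsp90aa1, 0.81 for Hspd1 and for Hspe1, 0.70 for Hsf1, 0.54 for Dnajb1, -0.32 for Hspa1a, -0.35 for Hspa1b and -0.75 for Hspb1. Over the 6 tumours with group means subtracted, Hspa1a and Hspa1b were at 0.96 and 0.88, Hsp90aa1 at 0.87, Hsf1 at 0.85, Hspa8 at 0.77, Hspd1 and Dnajb1 at 0.70, Hspe1 at 0.31 and Hspb1 at -0.62. The 5 highest in that ranking were Pbdc1, Slc7a6os, Armc6, Nfatc2 and Ubfd1, all at 0.99 or above. For Hsph1, AC 3 lay far below AC 1 and AC 2 (286 against 542 and 579 CPM), so it weighs heavily on these values over 6 libraries. Hspa1a had only 27 to 55 counts in tumours. How many of the 11089 genes reach such values was not counted, and shared regulation was not tested.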

How the data were processed

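The authors deposited a table of raw counts and a table of FPKM. The submitters' processing notes name featureCounts 1.5.0-p3 and build mm9, while for aligner, read length and strand the entry is: not given in the sources used here. The gene length implied by the deposited counts and FPKM lay within 1% of GENCODE M21 (GRCm38) exons for 96.8% of 22279 genes with at least 20 counts, so gene coordinates are those of GENCODE M21 on GRCm38, and 54409 identifiers were paired with symbols. Every comparison was a separate fit of the 6 libraries it involves, in edgeR 4.0.16 under R 4.3.3 (TMM, filterByExpr, robust glmQLFit and glmQLFTest, Benjamini-Hochberg over all tested genes, threshold 0.05). The fit was also run on simulated counts with the same dispersion for every gene and few genes changed. That run cannot speak to the scaling between tissues or to a library that stands apart. Printed CPM use TMM factors over all 9 libraries, and correlations use log2(CPM + 0.5). Alternatives were DESeq2 1.42.0, other scalings, no filter, all libraries in one fit, a replicate block and libraries left out. The members and lists were chosen with earlier results of these data known. From each list, up to 3 genes with the smallest adjusted p were named in each comparison, or the one with the smallest p where none passed, and the text uses some of these. A depth of 15690038 to 23476056 counts makes 3 counts worth 0.128 to 0.191 CPM, and intervals and floors cover counting error only.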

Additional observations from a re-analysis of the deposited data

How the results depend on the processing

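Of 416 member fold changes recomputed over 30 member comparisons, 383 moved by less than the SD between replicates and 33 by more, and no member past the threshold changed sign. Against colon this SD takes in sham 1 and can be wide, such as 0.84 for Hsph1 in AC tumours. Its move from 1.62 to 2.25 without scaling factors thus counted as less. Between AC and model tumours no member was past the threshold, so no change of sign could count there. Some of the 416 values repeat the same fit. Leaving out 1 library gave 11677 to 15339 called genes in model tumours against colon and 10899 to 14360 in AC tumours against colon, 4 to 9 members in each, and 71 to 91 and 68 to 93 network genes. The 9 members came without sham 1, and also without sham 1, model 1 and AC 3 together (9 in each comparison), an alternative chosen after seeing the data. In AC against model tumours, leaving out 1 library gave 0 to 569 genes, 0 to 2 members and 0 to 11 network genes, with all calls coming without AC 3. DESeq2 called 306 genes, 3 members and 6 network genes there, edgeR without a low-count filter 105 genes and 3 network genes, and edgeR without model 1 and AC 3 94 genes and 1 member. The cause was not tested. No pairing by replicate number was seen: correlations of same-numbered deviations ran from -0.46 to 0.38 over 9 pairs, and 3 of 9 were highest with their own number. With 3 libraries per group, some of which stand apart, these correlations cannot exclude a pairing. The replicate block gave 11774, 11303 and 0 genes and 4, 5 and 0 members in the 3 comparisons, where the fits without it gave 12697, 12165 and 0, and 5, 5 and 0. No scaling factors raised the share of calls that were higher from 52.8% to 67.3% in model and from 52.1% to 68.2% in AC tumours against colon. At 13 to 29 counts in tumours, depth limits Hspb1 most.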
